A study of Mus musculus with 6 samples.

Results

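Vav1 was examined as the locus whose regulatory DNA drove the transgenes of this study: all CpGs listed in the deposited files within chr17:57269000-57338000 of mouse GRCm38 (mm10), which is Vav1 with 10 kb on either side. The region was chosen by measured values of these libraries, namely the reads per CpG and the methylated share of reads in all 3 genotypes, so those values are given as a description and without a test. The files listed 142 distinct CpGs in this region, of 4175106 in the whole series and of 893 CG sites that the reference sequence holds in these 69001 bp. Of the 142, 78 were listed in all 6 libraries, and 38 had at least 10 reads in both WT libraries, whereas 104 did not pass that minimum.

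DNA methylation was measured by reduced representation bisulfite sequencing (RRBS), in which genomic DNA is cut by MspI at CCGG and the fragment ends are sequenced after bisulfite conversion, in CD8+ T cells from lymph nodes of 13-week-old C57BL/6N mice (C57BL/6NCrl in the methods of the study). The WT group carried no transgene. The hSTAT5B group was hemizygous (+/T) for nonmutated human STAT5B, and the hSTAT5BN642H group, also +/T, for human STAT5B with the leukemia-associated mutation N642H. Each group had 2 libraries labelled as replicates, and since no source used here says that they came from separate mice, the spread between them may be technical. Both transgenes were placed in the Vav1-hCD4 (HS21/45) vector, which carries Vav1 regulatory DNA and directs expression to blood-forming cells, and each genotype was represented by 1 selected mouse line, so that the transgene, its copy number, and its insertion site cannot be told apart. The hSTAT5BN642H mice were described as diseased. Reads from vector copies and from the endogenous gene cannot be told apart where their sequences are the same.

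VAV1 is a guanine nucleotide exchange factor for small GTPases such as RAC1. It is made almost exclusively in hematopoietic cells and acts downstream of the T cell receptor, where it links proximal tyrosine kinases and the adaptors LAT and SLP-76 to actin remodeling and calcium signals. Because its promoter and intronic elements are active throughout the blood lineages, they are widely used to drive transgenes in those cells. Methylated CpGs at a promoter usually accompany silence of that promoter, while CpGs inside transcribed gene bodies are usually methylated.

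Library depth ranged from 43291086 to 67007186 reads summed over CpGs, with 2597893 to 3445555 CpGs listed per library and a median of 5 to 11 reads per listed CpG. Reads were scaled to a library total of 1000000 (RPM), so a read that spans several CpGs counts at each of them. Around Cd8b1, which encodes a chain of the CD8 coreceptor, the mean methylated share was 44.2% and 45.6% in the WT libraries, 23.9% and 29.4% in hSTAT5B, and 13.9% and 14.3% in hSTAT5BN642H, while the myeloid genes Csf1r and Itgam were at 89.9% to 94.2% in every library. Around Cd8a, WT replicate 1 stood apart, at 65.7% against 29.8% to 42.6% in the other 5 libraries. The B cell gene Cd79b was at 37.0% and 41.7% in WT, 37.1% and 46.4% in hSTAT5B, and 50.1% and 46.7% in hSTAT5BN642H, and Cd3g and Cd4 stayed between 22.9% and 30.9% in all libraries. Expression was not measured in these files, and the part of cell makeup in the values at Vav1 was not tested.

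Mouse Vav1 (ENSMUSG00000034116.17) lies on the plus strand at chr17:57279100-57328031, and no other annotated protein-coding gene overlaps the region. Other gene types were not looked up. Reads in both transgenic genotypes exceeded the WT reads in 2 short stretches of the locus, from 2250 bp before to 872 bp after the annotated start, and from 11373 to 11617 bp after the start inside intron 1. The first stretch was not read throughout. Between 2225 and 36 bp before the start, on an MspI fragment of 2189 bp, no CpG was listed, so the reads there are unknown. Outside them the summed reads were close to the WT level. The reference sequences of the places with the higher reads are given here from the plus strand of GRCm38, 5′ to 3′, with the CpGs that had them in capitals, since the methylation findings differ between these places. The 250 bases before the start hold 7 CpGs, of which only the 2 in capitals were listed in the files. The label mostly unmethylated there refers to these 2 alone.
The 250 bases before the start (chr17:57278850-57279099), mostly unmethylated: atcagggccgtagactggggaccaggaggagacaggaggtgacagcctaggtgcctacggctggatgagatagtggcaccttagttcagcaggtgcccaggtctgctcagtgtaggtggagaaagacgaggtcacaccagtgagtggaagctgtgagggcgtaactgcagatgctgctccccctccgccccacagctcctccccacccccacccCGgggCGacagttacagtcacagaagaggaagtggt
Upstream stretch (chr17:57276830-57276895): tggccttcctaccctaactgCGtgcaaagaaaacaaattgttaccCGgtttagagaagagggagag
Beginning of intron 1 (chr17:57279409-57279473): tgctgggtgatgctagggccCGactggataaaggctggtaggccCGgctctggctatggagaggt
Near element of intron 1 (chr17:57279917-57279992): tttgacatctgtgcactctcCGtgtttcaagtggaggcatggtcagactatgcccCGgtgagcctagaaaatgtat
Far element of intron 1 (chr17:57290453-57290737): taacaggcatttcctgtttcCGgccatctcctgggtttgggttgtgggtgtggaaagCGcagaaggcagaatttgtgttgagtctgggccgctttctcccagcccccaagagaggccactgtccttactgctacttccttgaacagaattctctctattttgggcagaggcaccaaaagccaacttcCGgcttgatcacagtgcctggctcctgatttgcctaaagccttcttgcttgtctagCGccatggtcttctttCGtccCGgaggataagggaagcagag

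All of these sequences hold CCGG, the MspI site. This was fixed in advance, since RRBS reads start at MspI ends and the sequences surround CpGs that were read. Of the 32851 RefSeq promoter windows (250 bases before to 50 after a start), 52.8% hold CCGG. The letters TTCNNNGAA, the core that STAT factors recognise, which reads the same on both strands, occurred in 8.30% of those promoter windows. They occurred 0 times in the promoter window of Vav1 and at 1 place in the far element. The vector construct was released with HindIII before injection. In the reference, AAGCTT, the HindIII site, occurred 9 times in the region and 0 times within either stretch of higher reads. At 9 sites in 69001 bp, stretches this short would often hold none, so the count of 0 does not set them apart.

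At the promoter, the pair of CpGs just before the start carried the highest reads. CpG 57279064, 36 bp before the start, was covered by 53 and 50 reads in the WT libraries, 758 and 576 in hSTAT5B, and 986 and 656 in hSTAT5BN642H. Scaled, this was 1.20 and 0.921 RPM in WT, 16.0 and 13.3 in hSTAT5B, and 14.7 and 12.9 in hSTAT5BN642H, a ratio of the means to WT of 13.8 and 13.03. Every transgenic library lay above both WT libraries. CpG 57279069, 31 bp before the start and on the same MspI fragment of 123 bp, gave ratios of 14.3 and 13.4. Neighbouring CpGs of a fragment end are read by the same molecules, so they are not separate measurements.

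The first CpGs of intron 1 with enough WT reads for the same comparison were CpG 57279937 and CpG 57279972, 837 and 872 bp after the start. CpG 57279937 had 25 and 35 reads in WT, 336 and 297 in hSTAT5B, and 318 and 232 in hSTAT5BN642H, and its ratios to WT were 11.5 and 7.69. At CpG 57279972 the ratios were 11.6 and 7.73. At both, the hSTAT5BN642H libraries (4.50 to 4.75 RPM) lay below the hSTAT5B libraries (6.77 to 7.08), with no overlap.

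Deeper in intron 1, the far element gave the highest scaled reads of the whole region. CpG 57290717, 11617 bp after the start, had 68 and 91 reads in WT, 1303 and 1294 in hSTAT5B, and 1565 and 1206 in hSTAT5BN642H. This corresponded to 1.54 and 1.68 RPM in WT, 27.5 and 29.9 in hSTAT5B, and 23.4 and 23.8 in hSTAT5BN642H. The ratios to WT were 17.8 and 14.7. Again the groups did not overlap, and hSTAT5BN642H lay between WT and hSTAT5B. Its neighbours CpG 57290696 and CpG 57290712 gave ratios of 17.9 and 17.3 in hSTAT5B and 14.7 and 14.3 in hSTAT5BN642H. CpG 57290640 gave 13.6 and 12.7, and there the hSTAT5B libraries, at 12.8 and 16.5 RPM, overlapped those of hSTAT5BN642H at 13.7 and 13.6.

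These 8 CpGs were the ones, among the 38 with at least 10 reads in both WT libraries, at which both libraries of a transgenic genotype lay above both WT libraries with a ratio of means of at least 2, and they were the same 8 in hSTAT5B and hSTAT5BN642H. Over all 992128 CpGs of the series with that many WT reads, 0.622% met this rule in hSTAT5B and 1.37% in hSTAT5BN642H. A ratio of at least 5 was reached at 8 CpGs in hSTAT5B, which is 0.000806% of those CpGs, and at 21 CpGs in hSTAT5BN642H (0.00212%). All 8 of the former and 8 of the latter were these Vav1 CpGs. The remaining 30 Vav1 CpGs with enough WT reads had ratios from 0.486 to 1.71 in hSTAT5B (median 0.923) and from 0.498 to 1.40 in hSTAT5BN642H (median 0.906). Around a ratio of 2, the lowest mean transgenic ratio inside was 9.60 at CpG 57279937, and the highest outside was 1.23 at CpG 57275509, 3591 bp before the start.

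**Figure D1:**
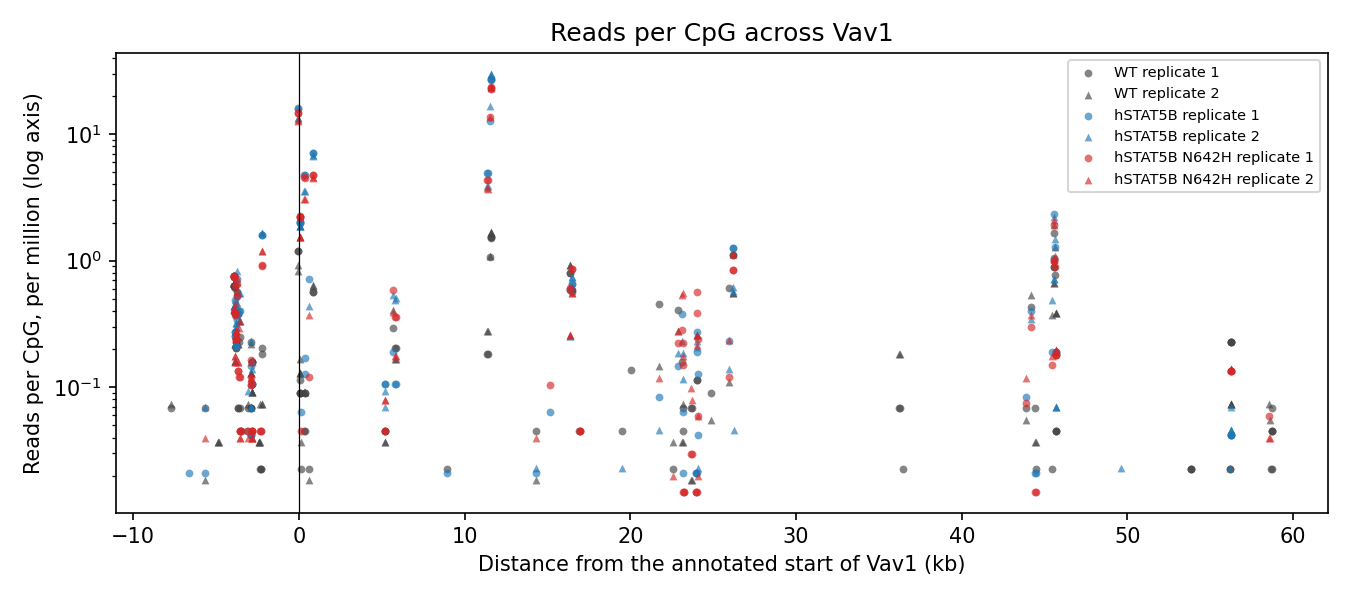
RPM at each listed CpG (log axis) against the distance from the annotated start of Vav1 in kb, for the 2 libraries of each genotype; CpGs with 0 reads in a library are not drawn. The transgenic points rise above the WT points close to the start and around 11 kb into intron 1, where they reach 29.9 RPM, and mingle with them elsewhere.

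A wider set of CpGs was taken, with a threshold chosen after the values were seen, to describe the stretches in which WT reads were few. Of 94 CpGs of the region listed in both WT libraries, 19 had both transgenic genotypes above WT and a mean transgenic ratio of at least 4; over the series the same rule held for 0.177% of 2691629 CpGs. The 19 lay at 9 MspI fragment ends, 13 in the promoter window (3 kb before to 1 kb after the start) and 6 in intron 1 beyond it. Their ratios to WT ranged from 11.5 to 60.2 in hSTAT5B (median 17.5) and from 7.54 to 55.5 in hSTAT5BN642H (median 14.3). Of these CpGs, 11 had fewer than 10 reads in a WT library, so their single ratios carry a wide counting error. CpG 57302212, 23112 bp after the start, also lay above WT in both genotypes, but with 7 and 2 WT reads and lower ratios of 3.12 and 4.17. Within the stretches, 3 further listed CpGs had 0 to 8 reads per library and were not among the 19.

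The highest ratios belonged to CpG 57279429 and CpG 57279453, 329 and 353 bp after the start at the beginning of intron 1. CpG 57279429 had 2 and 5 reads in WT, 224 and 154 in hSTAT5B, and 305 and 156 in hSTAT5BN642H. The ratio was 60.2 in hSTAT5B, and the exact 95% counting interval of the pooled ratio ran from 28.1 to 147. In hSTAT5BN642H the ratio was 55.5, with an interval of 26.5 to 138. RRBS reads here carried no molecular tags, so such intervals cover counting error only.

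Exon 1 held 4 of the 19 CpGs, between 46 and 87 bp after the start. CpG 57279187 there had 5 and 9 reads in WT, 98 and 82 in hSTAT5B, and 151 and 78 in hSTAT5BN642H, with ratios of 14.2 and 13.6. Upstream, CpG 57276850, 2250 bp before the start, had 8 and 4 reads in WT, 75 and 72 in hSTAT5B, and 62 and 60 in hSTAT5BN642H, with ratios of 12.7 and 8.27. The transgenic libraries were well above WT at each of these places.

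The edge of the higher reads was bracketed most narrowly upstream. The nearest CpG on the far side with at least 10 WT reads in the 2 libraries together was CpG 57276283, 567 bp before CpG 57276850 and on the same 640-bp MspI fragment. It had 7 and 5 reads in WT, 5 and 6 in hSTAT5B, and 3 and 2 in hSTAT5BN642H. The opposite ends of this fragment thus had a mean transgenic ratio of 0.654 and 10.5. The other edges were bracketed only by wide gaps, of 4791 bp after CpG 57279972, of 5521 bp before CpG 57290473, and of 4726 bp after CpG 57290717.

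Between and beyond these stretches, reads stayed near WT. The 33 CpGs from 3942 to 2817 bp before the start summed to 9.23 and 9.69 RPM in WT, 9.46 and 8.87 in hSTAT5B, and 9.43 and 7.34 in hSTAT5BN642H. CpG 57284763, 5663 bp after the start and between both stretches, had 13 and 22 WT reads, 9 and 23 hSTAT5B reads, and 39 and 20 hSTAT5BN642H reads, with ratios of 1.03 and 1.40 and overlapping libraries. In exon 26, CpG 57324695 had ratios of 1.26 and 1.12, and CpG 57324677 and CpG 57324682 had ratios from 1.13 to 1.31. CpG 57275539, 3561 bp before the start, had 1.64 in hSTAT5B and 0.783 in hSTAT5BN642H.

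Some of the lowest ratios lay at the end of intron 1. CpG 57295443, 16343 bp after the start, had 35 and 50 reads in WT, 28 and 11 in hSTAT5B, and 40 and 13 in hSTAT5BN642H, with ratios of 0.492 and 0.498, and CpG 57295477 on the same fragment had 0.492 and 0.506. CpG 57301990, 22890 bp after the start and past intron 1, had ratios of 0.486 and 0.731, CpG 57323302 had 0.774 and 0.698, and CpG 57275253 had 0.684 and 0.900. A ratio of at most 1/2 with both libraries below both WT libraries was met by 3 of 38 CpGs in hSTAT5B and 1 of 38 in hSTAT5BN642H, while over the series 5.14% and 4.95% of CpGs met it.

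By annotated segment, the same pattern held. In the promoter window, the CpGs summed to 5.76 and 5.16 RPM in the WT libraries, 68.2 and 59.6 in hSTAT5B, and 59.5 and 50.4 in hSTAT5BN642H. The mean was 5.46 ± 0.43 in WT, 63.9 ± 6.07 in hSTAT5B, and 54.9 ± 6.43 in hSTAT5BN642H (SD, n = 2). The ratio to WT was 11.7 ± 1.44 in hSTAT5B and 10.1 ± 1.42 in hSTAT5BN642H. In intron 1 beyond this window, the means were 10.1 ± 0.65, 111.8 ± 6.46, and 95.1 ± 1.31 RPM, with ratios of 11.1 ± 0.96 and 9.42 ± 0.62. The rest of the gene body had ratios of 1.03 ± 0.17 and 1.11 ± 0.097. The upstream flank had 0.969 ± 0.091 and 0.899 ± 0.17. The downstream flank held only 8 to 56 reads per library, too few for a ratio to be read. Over the 123 CpGs left in the region once the 19 were taken out by their ratios, the sum was 24.1 ± 0.21 RPM in WT, 23.0 ± 1.90 in hSTAT5B, and 23.3 ± 1.94 in hSTAT5BN642H.

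**Figure D2:**
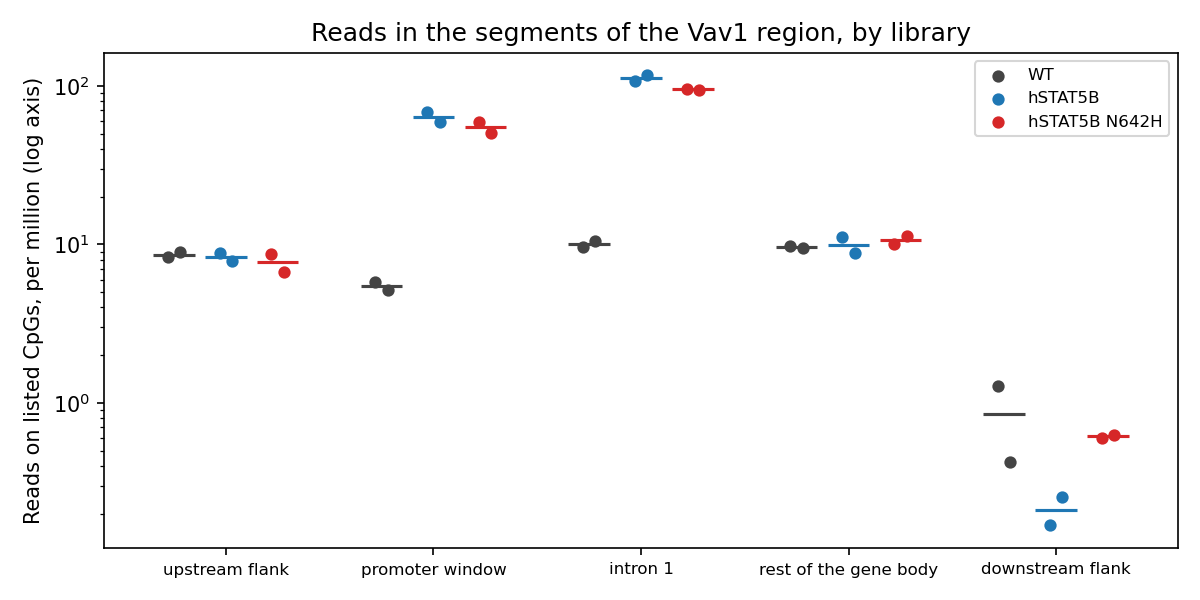
RPM summed over the listed CpGs of each annotated segment of the Vav1 region (log axis), with a point per library and a bar at the mean of the 2 libraries of each genotype. In the promoter window the transgenic libraries sit between 50.4 and 68.2 and the WT libraries at 5.76 and 5.16, while the upstream flank and the rest of the gene body show the genotypes together.

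The mutant and the nonmutated transgenic line were also set side by side. Over the 19 CpGs, the sum was 171.2 ± 0.030 RPM in hSTAT5B and 145.8 ± 6.31 in hSTAT5BN642H, a ratio of 0.851 ± 0.037. At all 19 CpGs the mean of hSTAT5BN642H was below that of hSTAT5B, and at 8 the libraries did not overlap. No share over all CpGs of the series stands beside these counts. The 19 lie at 9 MspI fragment ends, where neighbours share reads, so the counts are a description only. The ratio of hSTAT5BN642H to hSTAT5B ran from 0.428 to 0.973 (median 0.920). It was near the median just before the start, with 0.944 at CpG 57279064. At some other places of the promoter window it was lower, with 0.669 at CpG 57279937 and 0.650 at CpG 57276850. The lowest, 0.428, was at CpG 57279703, on 19 to 34 reads per library in hSTAT5B and 8 to 19 in hSTAT5BN642H. The transgene and the mouse line cannot be told apart in this comparison.

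Among promoter windows of protein-coding genes, taken in the same way from 3 kb before to 1 kb after the start, 15317 had at least 50 reads in both WT libraries. Vav1 had the highest ratio to WT in both genotypes, at 11.7 and 10.1, and the next highest windows had 2.25 in hSTAT5B and 3.31 in hSTAT5BN642H. The median window had 0.980 and 1.07. Windows with a ratio of at least 2 and no overlap between the libraries made up 0.0392% in hSTAT5B and 0.0653% in hSTAT5BN642H. These comparisons with WT share the WT libraries.

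**Figure D3:**
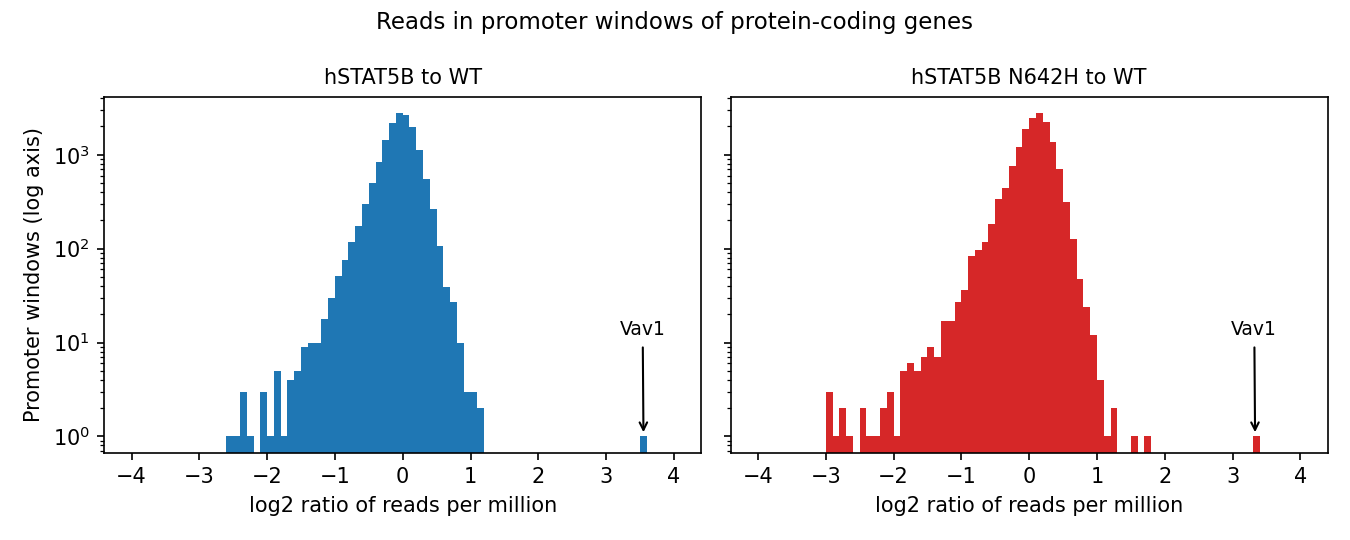
Number of promoter windows (log axis) by the log2 ratio of RPM to WT, for hSTAT5B and hSTAT5BN642H, over 15317 protein-coding genes; ratios below the left end of the axis are not drawn. The Vav1 window stands to the right of every other window, at ratios of 11.7 and 10.1.

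The same window was read for genes that work with VAV1 in T cell receptor signaling. Of 16 listed genes, which included the exchange factors Vav2 and Vav3, the kinases Zap70 and Lck, the adaptors Lat, Lcp2 (which encodes SLP-76), Grb2, and Nck1, the phospholipase Plcg1, the GTPases Rac1, Rac2, Rhoa, and Cdc42, and the ubiquitin ligases Cbl and Cblb, 13 had enough reads in the window, and Lcp2 and Rac2 were among those that did not. By the window rule 0 of the 13 were above WT in hSTAT5B and 0 in hSTAT5BN642H, against 0.0392% and 0.0653% of all 15317 windows. At such low shares, counts of 0 do not set these genes apart. Their ratios ran from 0.733 to 1.21 in hSTAT5B (median 0.880) and from 0.685 to 1.49 in hSTAT5BN642H (median 1.09). Vav2, a related exchange factor, had 1.21 and 1.49.

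In the transgenic libraries, the methylated share of all reads at the 19 CpGs differed sharply between places within the locus. Immediately before the start, the reads were mostly unmethylated in every genotype. CpG 57279064 had 0% and 12% methylated reads in the WT libraries, 10.9% and 11.1% in hSTAT5B, and 5.27% and 6.71% in hSTAT5BN642H. At CpG 57279069 the share was 0% in both WT libraries, with exact 95% upper limits of 6.72% and 7.87%, 7.37% and 9.39% in hSTAT5B, and 1.03% and 3.12% in hSTAT5BN642H. At both CpGs hSTAT5B lay above hSTAT5BN642H without overlap. The WT libraries spanned both lines at the former, and hSTAT5BN642H lay within the WT intervals at the latter. The 4 exon 1 CpGs among the 19 had shares of 0% in both WT libraries, from 4 to 9 reads each, and of 0.680% to 7.32% in the transgenic libraries.

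The beginning of intron 1 was methylated in the transgenic libraries. CpG 57279429, 242 bp downstream of CpG 57279187 in exon 1, had 98.7% and 96.1% methylated reads in hSTAT5B and 96.4% and 97.4% in hSTAT5BN642H. In the WT libraries, 0 of 2 and 0 of 5 reads were methylated, with exact 95% upper limits of 84.2% and 52.2%. The lower limits in the transgenic libraries were 91.7% to 96.1%. CpG 57279453 at the same MspI site showed 96.7% to 99.3% in the transgenic libraries and 0% of the same few WT reads. CpG 57279703, 603 bp after the start, had 62.5% to 73.7% in the transgenic libraries, with 1 unmethylated read in each WT library.

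The near element of intron 1 was also methylated in the transgenic libraries. CpG 57279937 had 24% and 17.1% methylated reads in WT, 87.5% and 96.6% in hSTAT5B, and 78.0% and 86.2% in hSTAT5BN642H. CpG 57279972 had 32.0% and 23.5% in WT, 95.2% and 95.9% in hSTAT5B, and 85.2% and 89.5% in hSTAT5BN642H. All transgenic libraries lay far above WT, and hSTAT5BN642H lay below hSTAT5B without overlap at each. A gain of at least 20 percentage points with no overlap was met by these 2 of the 29 Vav1 CpGs read 10 or more times in each of the 6 libraries, in either genotype, while over 757776 such CpGs of the series 0.809% met it in hSTAT5B and 0.941% in hSTAT5BN642H. Since the pair shares reads, it amounts to 1 place. No share over the series was taken for the transgenic lines against each other. Over the 19 CpGs, the hSTAT5BN642H libraries lay below hSTAT5B without overlap at 8 and above at 1, which is a description only.

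The upstream stretch was also methylated in the transgenic libraries, on thin WT coverage. CpG 57276850 had 85.3% and 83.3% in hSTAT5B and 83.9% and 85.0% in hSTAT5BN642H, against 0 of 8 and 2 of 4 reads in WT. CpG 57276875, 2225 bp before the start, had 76.0%, 67.6%, 47.5%, and 75.0% in the same transgenic libraries, with hSTAT5BN642H replicate 1 the lowest, and 11.1% and 25% in WT. On the opposite end of the 640-bp MspI fragment, CpG 57276235 had 1 methylated read of 10 in WT replicate 1 and 0% in the other 5 libraries.

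The far element of intron 1 stayed mostly unmethylated despite its high reads. CpG 57290717 had 7.35% and 9.89% methylated reads in WT, 14.2% and 14.3% in hSTAT5B, and 12.01% and 11.2% in hSTAT5BN642H. CpG 57290696 had 4.48% and 5.49%, 13.2% and 10.2%, and 5.84% and 8.16%, so hSTAT5B was again the highest. At CpG 57290640 the order differed, with 2.13% and 1.69% in WT, 3.62% and 5.17% in hSTAT5B, and 7.17% and 6.52% in hSTAT5BN642H. Over the 6 CpGs of this element the share was at most 10.3% in WT, 14.3% in hSTAT5B, and 12.01% in hSTAT5BN642H.

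**Figure D4:**
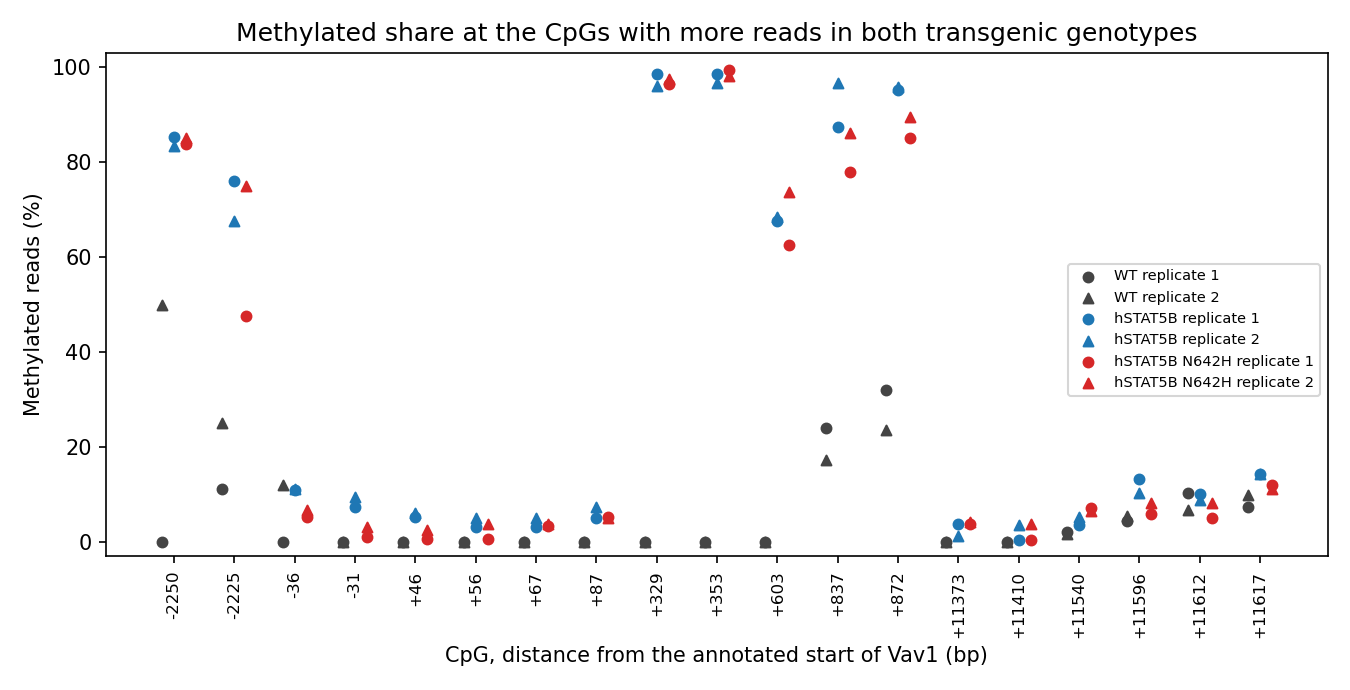
Methylated share of reads (%) at the 19 CpGs with higher reads in both transgenic genotypes, ordered by distance from the annotated start of Vav1 in bp, with a point for each of the 6 libraries. Shares stay under 15% at the start and at the far element of intron 1, and reach 62.5% to 99.3% in the transgenic libraries from 329 to 872 bp after the start.

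Shares over whole segments mixed these places. In the promoter window, 8.51% ± 3.12 of reads were methylated in WT, 42.9% ± 0.85 in hSTAT5B, and 33.5% ± 2.10 in hSTAT5BN642H (SD, n = 2), and the transgenic lines differed by -9.31 ± 2.26 percentage points. With each CpG weighted equally at a minimum of 5 reads, that difference was -3.93 percentage points. In intron 1 beyond it the order turned, with 39.6% ± 1.51 in WT, 12.7% ± 0.43 in hSTAT5B, and 10.8% ± 0.14 in hSTAT5BN642H. The latter difference followed from the number of reads at the unmethylated far element: at the 12 other CpGs of intron 1 the share was 96.5% ± 3.11 in WT, 96.8% ± 0.12 in hSTAT5B, and 94.0% ± 3.03 in hSTAT5BN642H. With each CpG weighted equally, the difference from WT in intron 1 was 1.65 percentage points in hSTAT5B and 1.10 in hSTAT5BN642H, when the CpGs were limited to those with a minimum of 10 reads throughout.

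Upstream and in the rest of the gene body, where summed reads were near WT, the methylated share was close to the WT state. The 33 CpGs from 3942 to 2817 bp before the start had 2.70% and 2.66% methylated reads in WT, 1.34% and 0.521% in hSTAT5B, and 1.90% and 2.69% in hSTAT5BN642H. The rest of the gene body was almost fully methylated, at 98.1% ± 0.98 in WT, 98.9% ± 0.059 in hSTAT5B, and 98.6% ± 0.52 in hSTAT5BN642H. The 18 promoter window CpGs outside the 19 were less even, on 34 to 67 reads per library. They had 1.69% and 10.4% in WT, 30% and 0% in hSTAT5B, and 1.75% and 0% in hSTAT5BN642H. Over the 123 CpGs of the region outside the 19, the share was 58.5% and 57.5%, 60.1% and 57.9%, and 58.5% and 65.1%, in the same order.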

How the data were processed

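RRBS of CD8+ T cells was analysed in 6 libraries. The submitters' processing notes name Trimmomatic, BSMAP, and GRCm38 (mm10); versions are not given in the sources used here. Per CpG, the authors deposited the methylated and all reads as text, unnormalized, and a score, 1000 times the methylated share as deposited by the authors, which matched the reads within rounding and was not used further. Every listed CpG of chromosome 17 was CG in the RefSeq GRCm38 sequence. Genes came from GENCODE M21 and sequences from RefSeq.

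Reads were divided by the library's sum over CpGs and multiplied by 1000000. The region, the CpG groups, and the gene lists were chosen with earlier results of these data known, so no value at Vav1 was tested. Calls required both libraries of a genotype outside both WT libraries, a ratio of 2, and at least 10 reads in both WT libraries. CpGs of the promoter window were named where each library had 10 reads or more, and elsewhere those of the 10 highest and 5 lowest ratios, plus those around a ratio of 2; CpGs with fewer WT reads, and the 4-fold rule, were chosen after their values were seen. Marker genes used CpGs within 10 kb that every library read 5 times or more. SDs of ratios and differences combine the SDs of both groups. Exact 95% intervals are Clopper-Pearson. Alternatives changed the scaling, the read minimum, the fold, the window, the weighting, and the libraries. Tables were handled with pandas 2.3.3 and numpy 2.4.6 in Python 3.11.15, intervals came from scipy 1.17.1, and plots from matplotlib 3.10.9. Some listed genes are not reported here.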

Additional observations from a re-analysis of the deposited data

How the results depend on the processing

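No paired analysis was possible because the results come from no test and no label ties the replicate numbers to a litter, batch, or day. The promoter window from 1 kb before to 1 kb after the start gave read ratios to WT of 14.9 in hSTAT5B and 12.9 in hSTAT5BN642H. With 1 CpG per MspI fragment end, an alternative added after seeing the data, the hSTAT5B ratio was 13.4 in the promoter window, and in intron 1 the ratios were 9.97 and 8.68. Median-of-ratios size factors gave 8.64 in intron 1 of hSTAT5BN642H. The pooled fall of the methylated share in intron 1 turned direction with equal weights per CpG, to 4.59 and 1.23 percentage points for hSTAT5B and hSTAT5BN642H at a minimum of 5 reads per CpG, and to 1.65 and 1.10 at a minimum of 10 in each library, since pooling weights each CpG by its reads. Between the transgenic lines the intron 1 difference became -3.36 and -0.550, and the promoter window difference -3.93 at a minimum of 5 reads. At a minimum of 10 reads in each library, the promoter window differences from WT were 38.2 and 30.8. Leaving out 1 library at a time, the promoter read ratios ran from 10.9 to 12.5 in hSTAT5B and from 9.23 to 10.9 in hSTAT5BN642H, and the number of CpGs at or above a ratio of 2 was 8 to 9 and 8. That number was 8 to 11 in both genotypes under the other minimums and folds. Depth limits the single ratios at the 11 CpGs with fewer than 10 reads in a WT library, and the downstream flank.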
